A study of Mus musculus with 4 samples.

Results

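The natural killer receptor complex is a cluster of genes on mouse chromosome 6 for lectin-like receptors of natural killer cells and for some of their ligands. Its members were taken by symbol: all genes of chromosome 6 whose names start with Klra, Klrb, Klrc, Klrd, Klre, Klri, Klrk or Clec2 among the RefSeq genes of GRCm38.p6 (the same assembly as mm10). The rule found 39 genes. Of these 39, Klra16 and Klra23 carry coordinates that fall in the unsequenced first 3 Mb of the chromosome and could not be placed, which left 37 members among 49603 placed genes of every kind, 32 of them protein-coding and 5 pseudogenes. All but Clec2l, which lies far away on the same chromosome, form a single run of 36 genes that spans 2.64 Mb (128609227 to 131247716). The deposited list of accessible regions holds 64525 regions, of which 100 lie in this run or within 1 kb of its ends.

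ATAC-seq uses a transposase to tag DNA that is open between nucleosomes, and its peaks mark accessible chromatin. Here it was applied to naive CD4 T cells, resting helper T cells, purified from spleen and pLN (the abbreviation is that of the labels). The 4 libraries comprised 2 from wild-type animals and 2 from animals that lack Ddx55, an RNA helicase gene, according to the labels. The labels do not give the strain, the age or the way in which Ddx55 was deleted, and do not say whether replicates came from separate animals. The list analysed here is a joint one that gives only the position of each region. The genotypes could therefore not be compared, no spread between replicates can be given, and every value below describes both genotypes together.

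Natural killer cells weigh activating against inhibitory receptors, and this complex encodes many of both. The Klra genes encode the Ly49 receptors, most of which bind MHC class I molecules; Klrd1 (CD94) pairs with the NKG2 proteins of Klrc1, Klrc2 and Klrc3 to bind the non-classical molecule Qa-1; Klrk1 encodes NKG2D, an activating receptor for stress-induced ligands. The Klrb1 genes encode the NKR-P1 receptors, among them NK1.1 from Klrb1c, and several of the Clec2 genes that lie between them encode their ligands. Resting helper T cells are not known for use of most of these receptors, while Clec2d, the ligand gene Clr-b, is used widely in blood cells. The number and kind of Ly49 genes vary between mouse strains, and the reference used here is that of C57BL/6J.

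The libraries carried the accessible sites of T cells. All 9 T cell marker genes (among them Cd3e, Cd4, Tcf7 and Ccr7) had a region within 1 kb of a gene end, against 0 of 5 B cell markers (95% exact upper limit 52.2%; Pax5 had 5 regions inside the gene) and 2 of 5 myeloid markers (Itgam and Csf1r). Of 12 natural killer cell markers 7 had one (58.3%, 95% exact interval 27.7 to 84.8%), close to the 52.9% of all protein-coding genes, including the shared regulators Eomes and Tbx21 and the effector genes Gzmb and Prf1, while Ncr1, Nkg7, Gzma, Il2rb and Klrb1c had none. Cd8b1 had a region at an end and Cd8a did not. A small number of natural killer or CD8 T cells in the preparation and open sites in the CD4 T cells themselves cannot be told apart in a pooled list, and their part in the values below was not tested.

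Start sites came from the RefSeq promoter table of GRCm38.p6, which holds an entry for 29 of the 37 placed members. In 3 of them the start site itself lay inside an accessible region: Clec2i, Clec2d and Klra1. The 250 bases before these starts are shown because they are the promoters of the complex that the list marks as open. The promoter of Klrb1c is shown for contrast, as that of the best-known natural killer marker of the complex, with its nearest region 10.3 kb away. The promoters of Klra3 and Klra9 are shown as a pair of near copies without a region at the start. Capitals mark matches to any of the 9 short motifs described further on; all else is in lower case.
Clec2i (chr6:128887337-128887586, plus strand): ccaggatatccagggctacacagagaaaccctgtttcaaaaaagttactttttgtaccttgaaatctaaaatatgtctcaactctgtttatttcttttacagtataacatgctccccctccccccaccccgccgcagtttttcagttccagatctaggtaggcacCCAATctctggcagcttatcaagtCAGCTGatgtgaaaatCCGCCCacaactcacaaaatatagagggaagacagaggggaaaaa
Clec2d (chr6:129180365-129180614, plus strand): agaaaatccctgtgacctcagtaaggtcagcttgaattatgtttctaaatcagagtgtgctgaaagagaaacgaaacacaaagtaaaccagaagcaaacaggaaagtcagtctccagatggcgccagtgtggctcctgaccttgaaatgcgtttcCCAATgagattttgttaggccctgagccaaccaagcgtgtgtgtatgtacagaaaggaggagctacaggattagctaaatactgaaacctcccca
Klra1 (chr6:130386875-130387124, minus strand): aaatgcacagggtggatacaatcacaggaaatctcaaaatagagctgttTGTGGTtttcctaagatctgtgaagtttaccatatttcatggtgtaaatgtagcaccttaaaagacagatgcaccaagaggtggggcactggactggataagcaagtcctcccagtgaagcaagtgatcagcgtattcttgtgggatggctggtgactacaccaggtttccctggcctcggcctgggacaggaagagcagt
Klrb1c (chr6:128788642-128788891, minus strand): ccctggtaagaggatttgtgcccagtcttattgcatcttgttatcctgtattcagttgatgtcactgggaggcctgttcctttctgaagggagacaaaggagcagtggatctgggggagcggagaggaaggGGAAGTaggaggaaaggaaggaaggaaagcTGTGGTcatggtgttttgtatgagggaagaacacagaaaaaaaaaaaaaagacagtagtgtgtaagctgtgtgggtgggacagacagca
Klra3 (chr6:130337627-130337876, minus strand): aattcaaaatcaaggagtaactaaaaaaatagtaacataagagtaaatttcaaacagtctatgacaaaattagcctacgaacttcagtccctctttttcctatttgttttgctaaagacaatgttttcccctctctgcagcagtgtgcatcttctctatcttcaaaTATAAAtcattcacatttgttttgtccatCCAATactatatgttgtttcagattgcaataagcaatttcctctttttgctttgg
Klra9 (chr6:130193113-130193362, minus strand): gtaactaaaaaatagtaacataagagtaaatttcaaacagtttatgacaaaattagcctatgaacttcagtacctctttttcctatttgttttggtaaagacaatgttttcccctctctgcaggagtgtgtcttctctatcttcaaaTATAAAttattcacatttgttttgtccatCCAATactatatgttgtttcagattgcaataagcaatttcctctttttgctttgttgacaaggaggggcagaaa
All 250 bases of Clec2i and of Klra1, and 207 of the 250 of Clec2d, lay inside the region at that start, and 0 bases of the other 3 promoters did.

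Most receptor genes of the complex had no accessible region at their ends, and the members that did were spread over all 3 gene groups. Of the 32 protein-coding members, 5 had a region within 1 kb of either end (15.6%, 95% exact interval 5.28 to 32.8%), against 52.9% of the 21779 protein-coding genes on assembled chromosomes and 49.2% of those on chromosome 6. The 5 were Clec2i, Clec2d, Klre1, Klra8 and Klra1. Among the 5 pseudogenes Klra11-ps had one. The windows are set by the rule for members and 1 kb is a round choice. Just inside it, the nearest region to Klra8 was 654 bp away, and just outside it the nearest region to Klrk1 was 1271 bp from the gene.

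Regions inside the genes added to these. A region lay in the gene or within 1 kb of it for 13 of the 32 protein-coding members (40.6%, 95% exact interval 23.7 to 59.4%), against 67.9% of all protein-coding genes and 66% of those on chromosome 6. The median member had 0 regions in the gene and 1 kb on either side, where the median protein-coding gene had 1, and 1 region with 10 kb on either side, where the median gene had 2. Of the members 10 of 32 had no region in the gene or within 10 kb (31.2%, 16.1 to 50.0%), against 22.5% of all protein-coding genes. These 10 were Clec2l, Clec2h, Klrb1, Klrb1c, Clec2f, Clec2e, Klrc2, Klri1, Klra5 and Klra10; the pseudogenes Clec2j and Klra13-ps had none either.

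**Figure D1:**
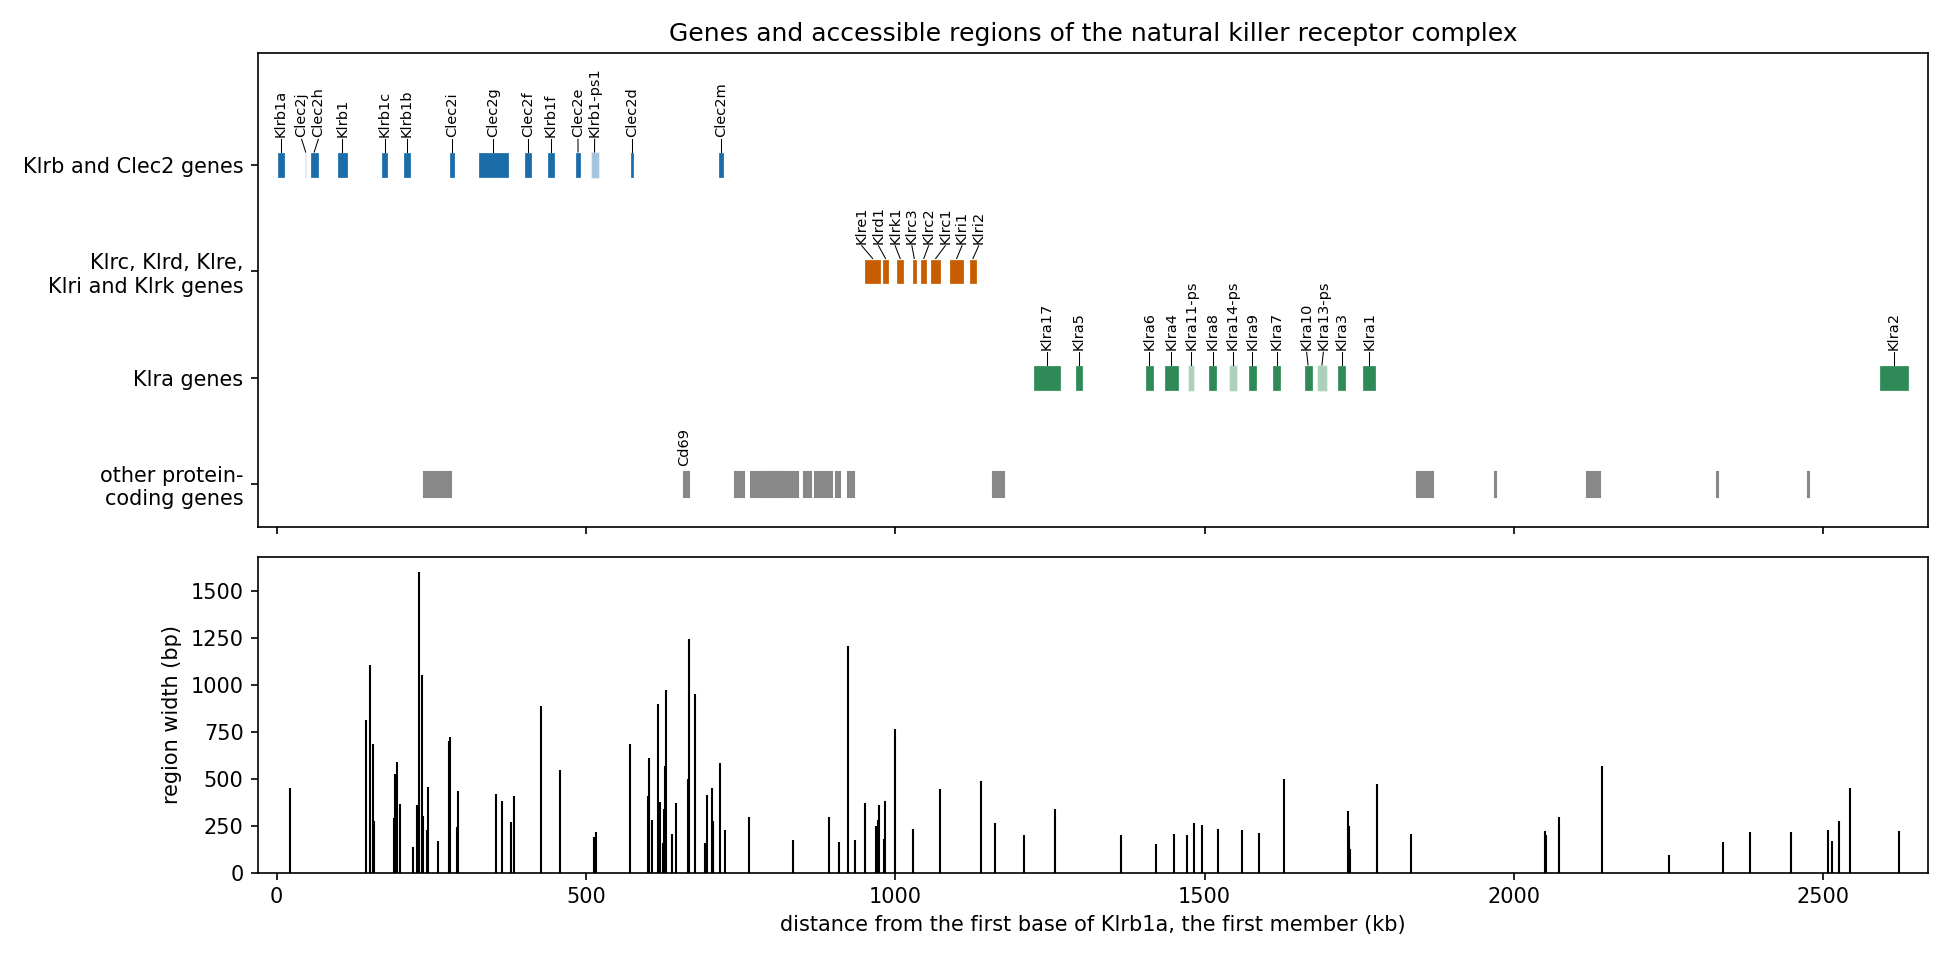
Map of the run of members, with the distance from the first base of Klrb1a in kb on the horizontal axis of both panels. Upper panel: genes by group (pale boxes are pseudogenes, grey boxes are protein-coding genes that are no members); lower panel: each vertical line is 1 accessible region at its centre, with its width in bp as the height. Regions are dense and wide among the Klrb and Clec2 genes and around Cd69, and among the Klra genes, from Klra17 to Klra1, there are 28.8 per Mb against 70.6 in the Klrb and Clec2 stretch, none of them 500 bp wide.

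The Klrb1 and Clec2 genes, receptors and ligands of the NKR-P1 system, are interleaved over 723 kb from Klrb1a to Clec2m. Of the 13 protein-coding members of this group, counting the distant Clec2l, 2 had a region at an end, both ligand-type Clec2 genes. This was 15.4% (95% exact interval 1.92 to 45.4%), against 52.9% of all protein-coding genes. Clec2i (gene ID 93675, 128887587 to 128898168, plus strand), which encodes Clr-g, had a region of 702 bp (128887092 to 128887793) over its start and a second of 722 bp (128888611 to 128889332) just inside the gene. Both also lie in the overlapping gene model BC035044, so the gene they belong to cannot be read from the list. Clec2d (gene ID 93694, 129180615 to 129186535, plus strand) had a single region, 684 bp wide (129180408 to 129181091), over its start.

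Other members of this group had regions inside the gene and none at an end. Clec2g had 2 (417 and 381 bp), both in the overlapping noncoding gene Gm15987, and Clec2m had 1 of 586 bp. The pseudogene Klrb1-ps1 had 2, of 187 and 218 bp. All the protein-coding Klrb1 genes were without a region in the gene or within 1 kb. From the gene, the nearest region was 3.05 kb away for Klrb1b, 7.08 kb for Klrb1f, 7.24 kb for Klrb1a, 10.3 kb for Klrb1c and 29.5 kb for Klrb1. Among the 13 protein-coding members of the group, 2 Clec2 genes and 0 Klrb1 genes had a region at an end. Over all protein-coding genes the share was 52.9%. The difference between Clec2 and Klrb1 genes rests on few genes and was not tested, and the region at Clec2i also lies in BC035044.

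Regions of this group lay mostly between the genes. Of the 51 regions of the stretch, 40 lay outside all protein-coding genes and their 1 kb flanks, against 27802 of 64233 on assembled chromosomes. The interval from Klrb1b to Clec2i held 8 regions in 61.3 kb, and those from Klrb1 to Klrb1c and from Klrb1c to Klrb1b held 4 each in 54.2 and 25.1 kb. The widest region of the complex, 1602 bp (128838505 to 128840106), lay in the first of these intervals, outside every annotated gene and 12.2 kb from Klrb1b. A region of 1104 bp (128760155 to 128761258) lay between Klrb1 and Klrb1c, 17.2 kb from Klrb1c. In contrast, a stretch of 123 kb (128630629 to 128753854) held no region and spanned the whole of Clec2j, Clec2h and Klrb1.

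Of all intervals between neighbouring members, that between Clec2d and Clec2m held the most regions, 20 in 136 kb, or 147 per Mb. It holds Cd69, an early activation marker of T cells and no member of the complex, which had 2 regions: 1242 bp (129274861 to 129276102) at its upper-coordinate end and 496 bp inside it. The noncoding gene 2310001H17Rik had 5 regions over 5.86 kb, and the noncoding gene Gm38906 next to Clec2d had 4. The other genes of the run with the most regions were the gene model BC035044 with 5 and the noncoding Gm34755 with 3. Of the 20 regions in this interval 9 lay outside genes and 6 were at least 500 bp wide.

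The genes of the NKG2 and CD94 receptors and their relatives lie in a compact stretch of 181 kb from Klre1 to Klri2. Klre1 (gene ID 243655, 129559365 to 129585828, plus strand), whose product pairs with those of Klri1 and Klri2, had 4 regions in the gene, more than any other member. The first, 372 bp (129559287 to 129559658), lay over the lower-coordinate end of the longest gene model. The RefSeq promoter entry places the start 838 bp from the second, 250 bp wide (129577126 to 129577375), and the others were 280 and 361 bp wide. Klrd1, which encodes CD94, had 2 regions inside the gene, of 179 and 381 bp, and none at an end.

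Of the NKG2 genes, Klrc1 (inhibitory NKG2A) had 1 region of 443 bp, 1459 bp from its promoter entry, and Klrc3 (NKG2E) had 1 of 234 bp inside the gene. Klrc2 (activating NKG2C) had none within 10 kb. Klrk1 (NKG2D) had none in the gene, and a region of 764 bp (129608289 to 129609052) lay in the interval to Klrd1, past the 3' end of Klrk1. Its start was 14.6 kb from the nearest region. Klri1 and Klri2 had none within 1 kb. With windows of 2 kb in place of 1 kb, Klrk1 and Klrc1 join the members with a region at an end, for 7 of 32. The share over all genes was counted only for windows of 1 kb, so this count has none beside it.

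Of the 11 protein-coding Ly49 genes 2 had a region at an end (18.2%, 95% exact interval 2.28 to 51.8%), against 52.9% of all protein-coding genes. A further 3 had 1 inside the gene (Klra17, Klra4 and Klra2). In the gene or within 1 kb, 5 of the 11 had a region (45.5%, 16.7 to 76.6%), against 67.9% of all protein-coding genes. Klra1 (gene ID 16627, 130363918 to 130386874, minus strand), which encodes Ly49A, had a region of 470 bp (130386857 to 130387326) over its start and none elsewhere in the gene. Klra8 (gene ID 16639, 130115226 to 130129898, minus strand), which encodes the activating receptor Ly49H, had a region of 234 bp (130130552 to 130130785), 654 bp before its start. The region at the pseudogene Klra11-ps was 262 bp wide (130092545 to 130092806) and lay inside the gene, near its upper-coordinate end. Among the members with a promoter entry, the starts of Klra5 and Klra10 were farthest from any region, 45.5 and 43.7 kb away. Measured from the gene, the pseudogene Klra13-ps was farthest, at 34.0 kb. A stretch of 102 kb (130238227 to 130340417) without a region held the whole of Klra10, Klra13-ps and Klra3.

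Between Klra1 and Klra2, a Ly49 gene that stands apart from the others, 13 regions lay in 812 kb, with a median width of 214 bp, and the longest stretch of the run without a region, 216 kb (130442398 to 130658498), was there. Klra2 itself had 1 region of 220 bp inside the gene. The distant member Clec2l had none, and its nearest region was 25.7 kb away.

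Across the whole run, 6 regions lay at a member's end, 16 inside a member and 78 between members, 29 of these at or in another annotated gene and 49 outside all genes. Relative to all protein-coding genes, members or not, 7 of the 100 lay within 1 kb of an end, 22 inside and 71 outside. Over all 64233 regions on assembled chromosomes these counts were 11867, 24564 and 27802. Of the 35 intervals between neighbouring members 21 held a region and 14 held none. The run as a whole had 37.9 regions per Mb (95% exact Poisson interval 30.8 to 46.1), against 26.4 on chromosome 6 and 26.3 over all autosomes. Consecutive bins of 1 Mb on the autosomes had a median of 23 regions, with quartiles of 16 and 34 and a 95th percentile of 53. Intervals cover counting error only, and neighbouring regions are not independent.

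The excess lay in the Klrb and Clec2 stretch. It had 51 regions, or 70.6 per Mb (52.6 to 92.8), and still 52.8 per Mb (35.9 to 74.97) without the interval around Cd69. The remainder of the run had 25.6 per Mb (18.9 to 33.8). The stretch of Klrc, Klrd, Klre, Klri and Klrk genes had 9 regions (49.7 per Mb, 22.7 to 94.3), the Ly49 stretch from Klra17 to Klra1 had 16 (28.8 per Mb, 16.5 to 46.8), and the gap from Klra1 to Klra2 had 16.01 per Mb (8.52 to 27.4). The split into stretches was made after the map had been seen, and differences between them were not tested.

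**Figure D2:**
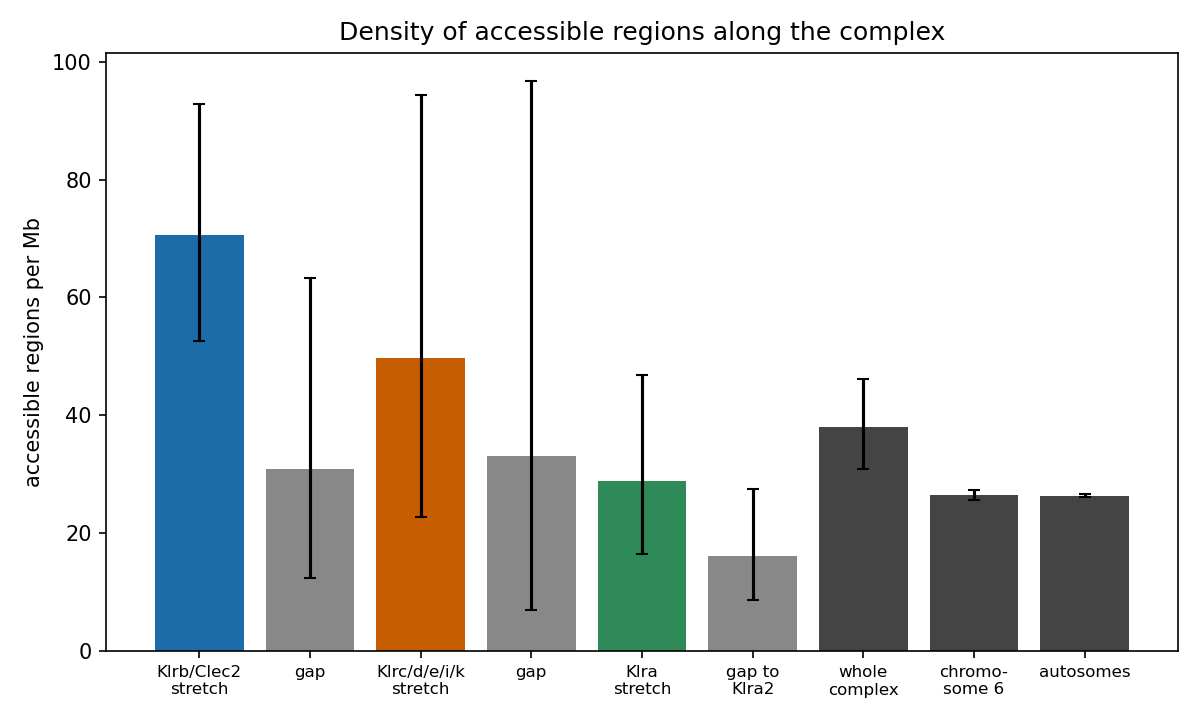
Accessible regions per Mb (vertical axis) in each stretch of the run, in the gaps between stretches, in the whole run, on chromosome 6 and on the autosomes; bars start at 0 and error bars are 95% exact Poisson intervals. The Klrb and Clec2 stretch reaches 70.6 per Mb, the Ly49 stretch 28.8 and the gap to Klra2 16.01, against 26.3 on the autosomes.

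Median region width over all positions followed the same order as density across the stretches of members. The median was 413 bp (95% interval of the median 358 to 525) over the 51 regions of the Klrb and Clec2 stretch, 361 bp (234 to 443) over the 9 of the Klrc to Klrk stretch and 230.5 bp (198 to 328) over the 16 of the Ly49 stretch, where the whole list had a median of 294 bp. At least 500 bp were reached by 19 of the 51, 1 of the 9 and 0 of the 16, against 27.4% of the whole list. Position relative to genes bears on width, so the regions outside protein-coding genes and their 1 kb flanks were set side by side: 40 in the Klrb and Clec2 stretch had a median of 390.5 bp (299 to 525), 12 in the Ly49 stretch had 219 bp (151 to 262), and all such regions on assembled chromosomes had 251 bp. The Klrc to Klrk stretch had only 1 such region, of 764 bp. Inside protein-coding genes the median was 437 bp over 8 regions of the Klrb and Clec2 stretch. It was 280 bp over 7 of the Klrc to Klrk stretch and 271 bp over 2 of the Ly49 stretch. All regions inside protein-coding genes on assembled chromosomes had 277 bp. Over the whole run the median was 296.5 bp (262 to 372).

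**Figure D3:**
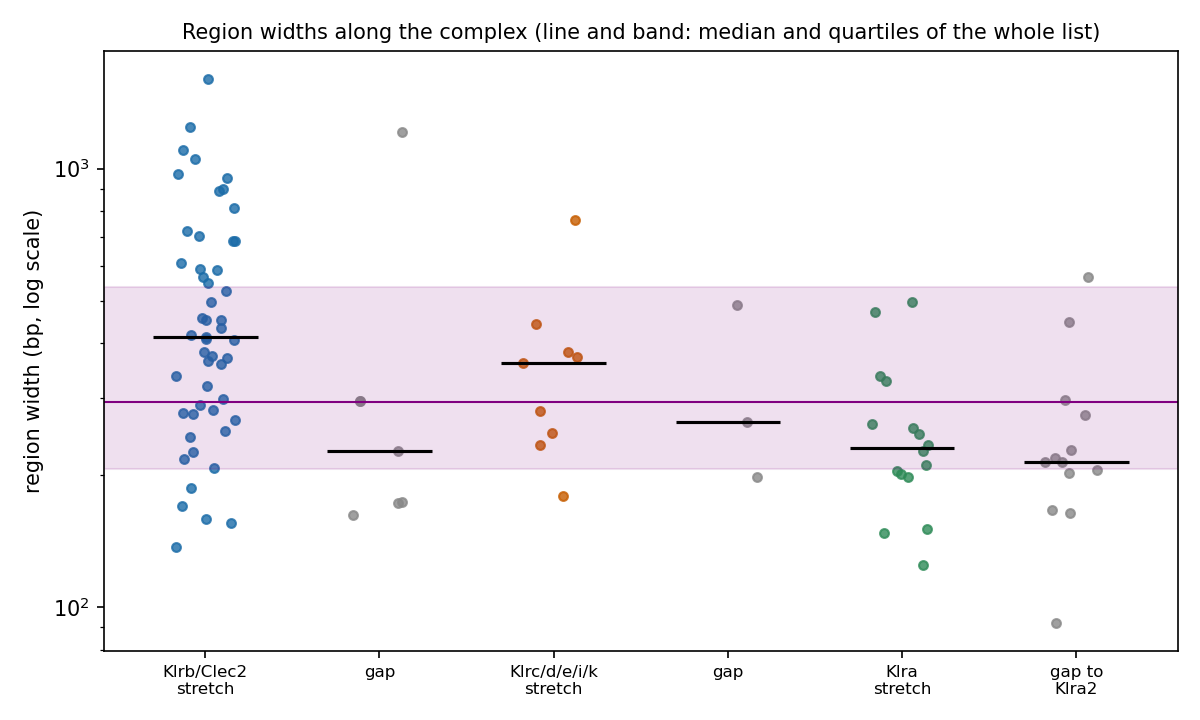
Width of each region in bp (vertical axis, log scale) by stretch or gap of the run; each point is 1 region, jittered sideways, and the black line is the median. The purple line and band are the median (294 bp) and quartiles (207 and 536 bp) of the whole list; no region of the Ly49 stretch exceeds 496 bp, whereas those of the Klrb and Clec2 stretch reach 1602 bp.

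Distances from the start site placed most members beyond the reach of a promoter window. Of the 29 members with a promoter entry 5 had a region within 1 kb of the start (17.2%), against 52.4% of all protein-coding genes with an entry. The median distance was 7.24 kb, from 0 for Clec2i, Clec2d and Klra1 to 45.5 kb for Klra5. By group the median was 4.52 kb over 11 Klra genes, 9.43 kb over 12 Klrb and Clec2 genes and 9.60 kb over 6 of the Klrc to Klrk genes. The median over all 17492 protein-coding genes with an entry was 0.426 kb, with quartiles of 0 and 17.6 kb. Clec2f, Klrd1, Klri2 and the pseudogenes have no entry in the table.

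**Figure D4:**
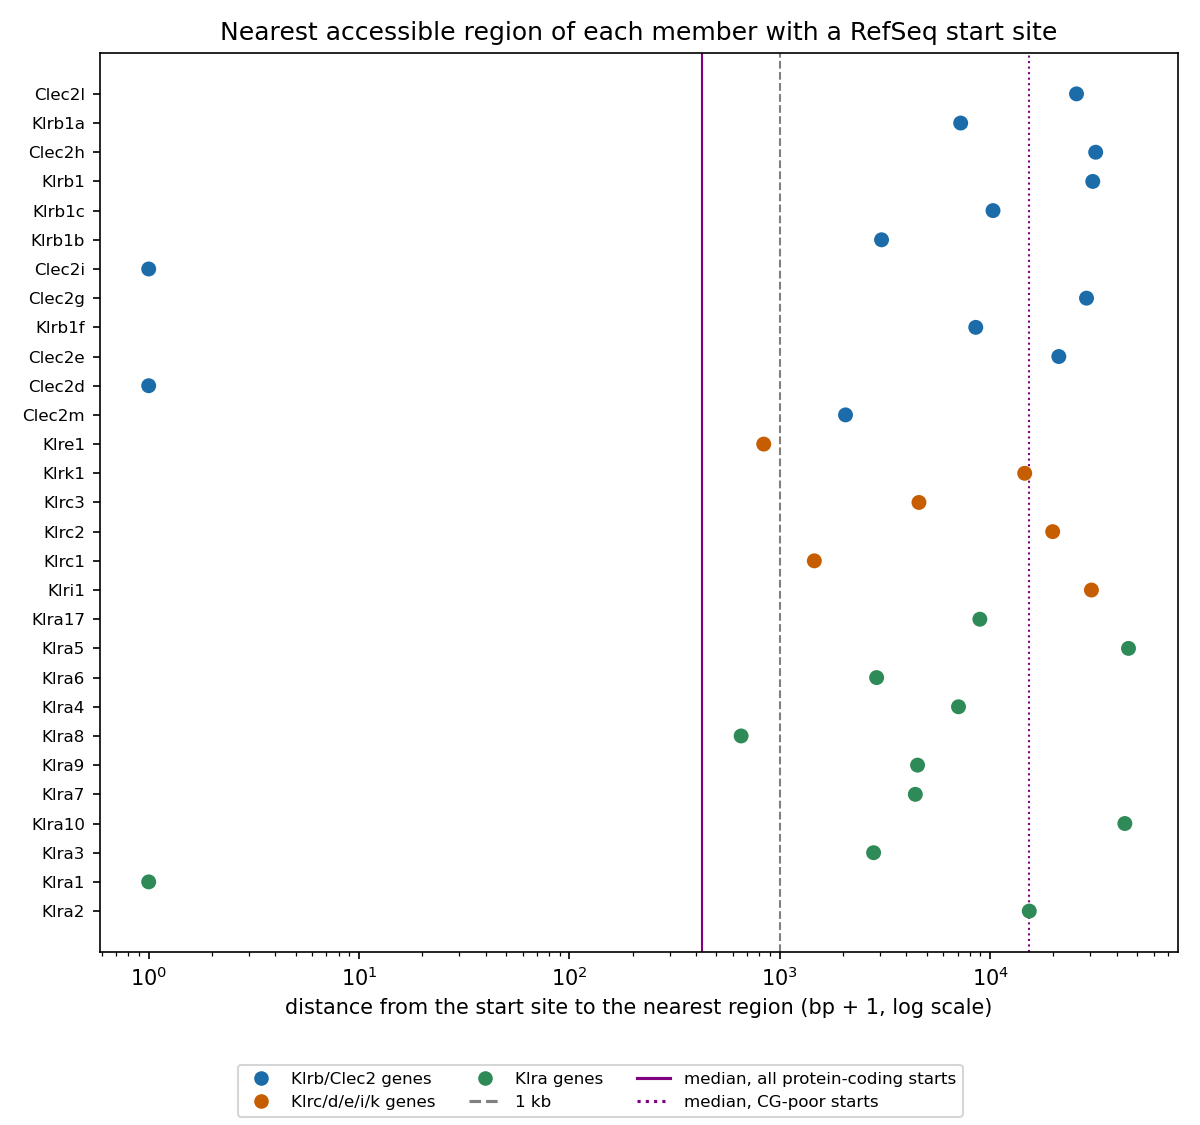
Distance from the RefSeq start site of each member to its nearest accessible region, in bp plus 1 on a log scale (horizontal axis), with members in chromosome order (vertical axis) and colours by gene group. The dashed line is 1 kb, and the purple lines are the medians over all protein-coding genes (0.426 kb) and over those with CG-poor promoters (15.4 kb). Clec2i, Clec2d, Klre1, Klra8 and Klra1 lie left of the dashed line.

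Promoters of the complex are poor in CG dinucleotides, and genes with such promoters had a region at the start far less often than others across the genome. The 300-base windows (250 before the start and 50 from it on) of the 28 members in the run held 0 to 7 CG, with a median of 2, where the median protein-coding gene had 13. A region lay within 1 kb of the start for 5 of these 28 (17.9%, 95% exact interval 6.06 to 36.9%). The share was 52.4% over all 17492 protein-coding genes with an entry, 13.9% over the 6683 with at most 7 CG and 76.2% over the 10809 with more. The limit of 7 CG is the highest count among these same 28 members. Their interval treats them as independent, although many are near copies. Whether CG content bears on the share of the members was not tested. The median distance to the nearest region was 15.4 kb for these 6683 genes (quartiles 3.88 and 42.5 kb). It was 7.24 kb over the 29 members with a promoter entry, a set that also holds Clec2l, which lies outside the run.

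Within the CG-poor range the share of all genes rose with each class, from 5.16% at 0 CG to 7.91% at 2, 18.3% at 4 and 29.3% at 5 to 7. Members with a region numbered 0 of 3 at 0 CG, 0 of 5 at 1, 2 of 8 at 2 (Klre1 and Klra1), 1 of 5 at 3 (Klra8), 1 of 4 at 4 (Clec2i) and 1 of 3 at 5 to 7 (Clec2d). Clec2l was the exception among the members: its window held 29 CG and it had no region, in a class where 83.6% of genes had one. This setting of members beside genes of the same CG count was chosen after the data had been seen.

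**Figure D5:**
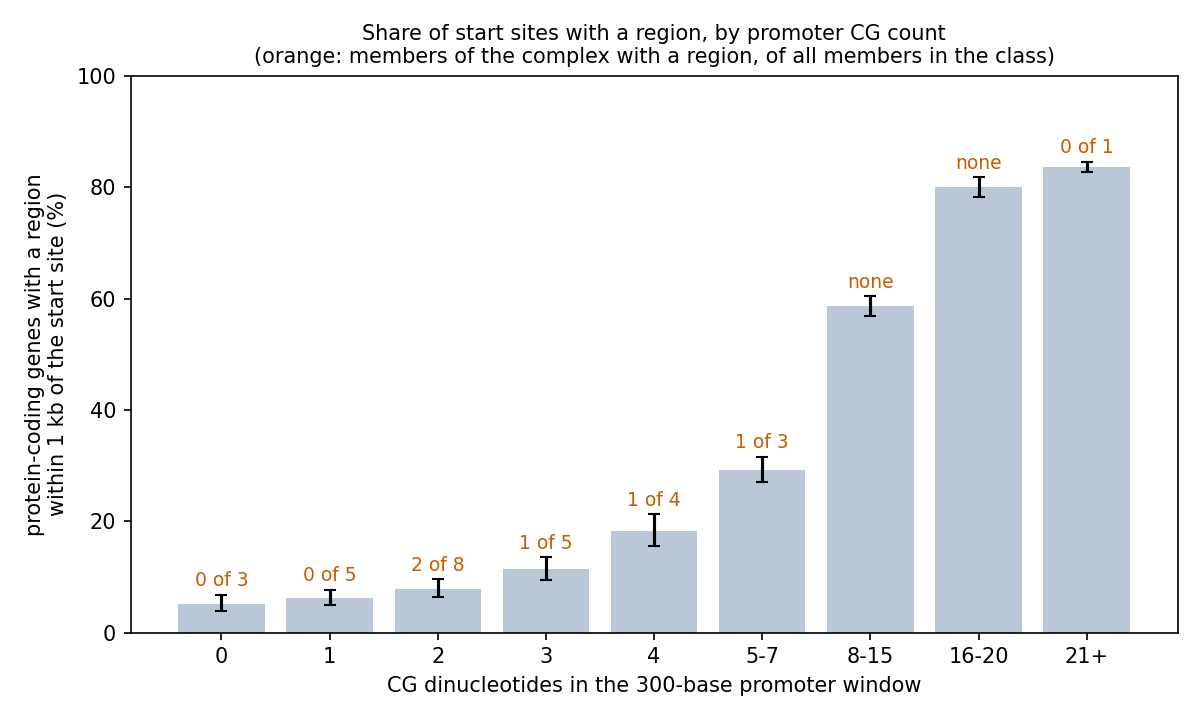
Share of protein-coding genes with an accessible region within 1 kb of the start site (vertical axis, %) by the number of CG dinucleotides in the 300-base promoter window (horizontal axis); error bars are 95% exact binomial intervals. Orange text gives the members of the complex with a region out of all members in the class: they fall in the classes up to 7 CG, except Clec2l at 29.

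Many members are near copies of one another, which can bear on whether short reads can be placed. Among the promoter windows the closest pair was that of Klrc2 and Klrc3, with 98.5% identity over 260 aligned columns, followed by Klra3 and Klra9 with 95.4% over 284 and Klra3 and Klra6 with 93% over 200. Klra3 and Klra9 are the pair printed above. Not all Ly49 windows were near copies. The median identity to the closest member was 86.6% over the Klra genes. For Klra1, whose start lay inside a region, it was 57.8% (to Klra2), and for Klra10 it was 55.6% (to Clec2h). Of the 28 promoters in the run 10 held a 50-base word that occurs in the promoter of another gene, up to 60.6% of the words of Klrc3, and 5 held such a word of 100 bases. No share over all promoters is given here for shared words, so these counts have no background beside them. All 5 promoters with a region held no shared 50-base word. Of the 23 promoters without a region, 13 also held none. The labels do not say how reads with more than 1 place in the genome were treated, and words shared with sequence outside the promoter table were not counted.

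The motif counts describe these windows and are no evidence of binding. Both strands of the 300-base windows were searched for 9 short motifs, and matches of different motifs may overlap. The RUNX motif (TGTGGT) was in 8 of the 28 promoters of the run (28.6%): Klrb1a, Klrb1c, Klre1, Klrk1, Klrc1, Klrc2, Klrc3 and Klra1. It was in 15.1% of all promoters and in 21.7% of those with at most 7 CG. The AP-1 motif (TGANTCA) was in 7 of 28, against 1230 of all 17492 promoters (7.03%) and 801 of the 6683 with at most 7 CG. The TATA box (TATAAA) was in 9 of 28 (32.1%), against 13.3% of all and 24.7% of the CG-poor promoters. Of these 9, 6 were Ly49 genes (Klra3, Klra5, Klra6, Klra8, Klra9 and Klra10). Near copies count separately in all motif shares, so the members are not independent. Such pairs were Klrc2 and Klrc3 (98.5% identity) for RUNX and AP-1, and Klrb1a and Klrb1c (89.1%) for RUNX. Others were Clec2h and Clec2e (87.1%) for AP-1 and Klra3 and Klra9 (95.4%) for TATA.

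The other motifs were closer to the CG-poor background, apart from the E box, which was in a smaller share of the members. The TCF/LEF motif (CTTTGA) was in 7 of 28, against 14.9% of all and 21.4% of the CG-poor promoters. The ETS motif (GGAAGT) was in 6 of 28 (21.4%), all of them Klrb1 or Clec2 genes, against 25.1% and 23.5%. The CCAAT motif was in 12 of 28 (42.9%), against 39.2% and 40.4%. The SP motif (GGGCGG) was in 3 of 28 (10.7%), against 46.3% and 8.92%. The T-box motif (AGGTGTGA) was in 0 of 28, against 1.17% and 1.81%. The E box (CAGCTG) was in 1 of 28, Clec2i, against 15.1% of all promoters and 1069 of the 6683 CG-poor ones. Among the starts inside a region, Klra1 held a RUNX match, Clec2d a CCAAT match, and Clec2i an E box, a CCAAT and SP matches.

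Other clusters of receptor and immune genes ranged widely. All 8 Gimap genes of chromosome 6, which encode lymphocyte survival GTPases, had a region at an end, and their promoters held a median of 4 CG. Of 9 SLAM receptor genes on chromosome 1, 6 had one (66.7%, 95% exact interval 29.9 to 92.5%) with a median of 3.5 CG. Of 1109 olfactory receptor genes 48 had one (4.33%, 3.21 to 5.70%) with a median of 1 CG. The 15.6% of the complex lay between these, and among the 17 other protein-coding genes inside the run, with a median of 2 CG, 2 had a region at an end (11.8%, 1.46 to 36.4%). Differences between these sets were not tested.

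Genes that work with these receptors elsewhere in the genome were listed for comparison, beside the 52.9% of all protein-coding genes. Of 15 adaptor and signalling genes 11 had a region at an end, including Hcst, which encodes the DAP10 partner of NKG2D, and Cd247, Zap70, Lck and Vav1, which also serve the T cell receptor. Tyrobp, which encodes the DAP12 partner of activating Ly49 receptors, and Sh2d1b1 had 0 regions in the gene or within 1 kb, while Fcer1g and Ptpn6 had regions inside the gene. Of 9 ligand genes that could be matched, of 12 listed, 7 had one: H2-K1, H2-D1 and B2m of MHC class I, H2-T23 of Qa-1, and the NKG2D ligand genes Raet1d, H60b and Ulbp1. Of 12 regulators of natural killer cells 9 had one, among them Tbx21, Eomes, Nfil3, Id2 and Runx3. Ets1, Gata3 and Zeb2 had none at an end and 20, 6 and 4 regions in the gene or within 1 kb. Many of these genes have other uses in T cells.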

How the data were processed

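ATAC-seq was performed on 4 libraries of naive CD4 T cells, 2 wild type and 2 labelled Ddx55 knockout. The authors deposited 1 list of regions with 3 columns (sequence name, start, end) and no header, score or read value. Build mm10 and the tools MACS3 3.0.0b1, SAMtools 1.15.1, Bowtie2 2.5.08 and fastp 0.12.4 are listed, per the submitters' processing notes. Their settings, the joining of peaks, and the handling of duplicates, multiply placed reads and the transposase offset were not given in the sources used here. Depth per library is therefore unknown.

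Starts were converted from BED to 1-based positions. Gene and promoter tables were RefSeq, GRCm38.p6; 340 genes with coordinates below 3 Mb on chromosomes other than Y were left out as unplaced, 108 of them protein-coding. An overlap of at least 1 bp counted. A run joins members less than 1 Mb apart. Where a gene had several promoter entries, that nearest to the outer end of the gene was used. Promoter pairs were aligned locally (match 2, mismatch -1, gap opening -3, gap extension -1, at least 150 columns). Every member was counted; those described in full had a region at an end or at least 3 in the gene or within 1 kb, and the 5 other genes with most regions were named. Members and lists were chosen with earlier results of these data known. No comparison between genotypes and no significance test was made. Protein sequences were not used here. The script that counts genes with a region at an end was checked on simulated regions placed at the ends of known genes. Analyses used Python 3.11.15, pandas 2.3.3, scipy 1.17.1 and Biopython 1.88.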

Additional observations from a re-analysis of the deposited data

How the results depend on the processing

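Of 29 alternatives, 26 left the value within the interval of the result or, for counts, within 1.5 times of it, and 3 moved it. The share of protein-coding members with a region at an end ranged from 12.5% (windows of 500 bp) to 21.9% (2 kb), and was 17.2% at start sites alone. No share over all genes is given here for windows of 500 bp or 2 kb. With 10 kb in place of 1 kb, the share with a region in or near the gene was 68.8% in place of 40.6%. At 10 kb, 31.2% of these members had none (95% exact interval 16.1 to 50.0%), against 22.5% of all protein-coding genes. With windows of 2 kb, 10 regions in place of 6 lay at a member's end. Without regions at or in other genes the run had 25.4 regions per Mb in place of 37.9. All 3 follow from how the alternative is built (wider windows, fewer regions kept). No paired analysis was possible because the list pools the libraries and carries no value per replicate, and for the same reason no library could be left out. Depth is unknown, so a gene without a region is one without a region in this list.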
